A study of Caenorhabditis elegans with 2 samples.

Results

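Peaks of MDL-1 in L1 larvae were examined at 8 nucleolar genes of 19973 protein-coding genes of Caenorhabditis elegans. The genes were chosen by name: fib-1, nol-56, nol-58, nol-10, pro-1, pro-2 and pro-3, and the regulator of nucleolar size ncl-1. Earlier results of these data were known when this choice was made. MDL-1, a basic helix-loop-helix leucine zipper factor, is the worm counterpart of the vertebrate MAD proteins. It was precipitated as an eGFP fusion from whole larvae of strain OP106, with males and females pooled, and the bound DNA was sequenced (ChIP-seq). The strain carries the transgene wgIs106 and the mutation unc-119(ed3) on chromosome III. Both samples of the series are biological replicates of this 1 group and of 1 transgenic strain, so no condition was compared, and whole animals do not show in which tissue a site was bound. In coordinates of the ce11 build, 3870 peaks passed the authors' irreproducible discovery rate (IDR) filter. Their relaxed lists, which also hold weak peaks, had 30000 each for replicate 1, for replicate 2 and for the pooled reads. Scores are as the authors' peak caller gave them, on an unstated scale, and a rank is the peak's place by score within 1 list. The files hold no read counts, so depth was unknown.

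RefSeq's product names for the genes include fibrillarin for fib-1, nucleolar protein 56 for nol-56, a Nop domain protein for nol-58 and a pre-rRNA processing protein for pro-1. For ncl-1 RefSeq gives a RING-type ubiquitin ligase, a name that says nothing of the nucleolus. The nucleolus is where ribosomal RNA is transcribed, trimmed, chemically modified and joined to ribosomal proteins. Box C/D small nucleolar ribonucleoproteins (snoRNPs) carry the methyltransferase fibrillarin, held on its guide RNA by the NOP56 and NOP58 proteins. Other factors fold and cleave the precursor on the way to the small and the large subunit. In vertebrates, genes of ribosome biogenesis are well known targets of the MYC family, which competes with MAD proteins for the partner MAX and for the E-box CACGTG. In the worm, MDL-1 pairs with MXL-1, and competition at the genes studied here was not tested.

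An IDR summit stood in the promoter window of 5 of the 8 genes, against 12.8% of all protein-coding genes. This window took in 1000 bp before the annotated 5' end and 200 bp after it. Because the genes were chosen with earlier results of these data known, such contrasts with all genes are descriptions only. From 5 kb upstream to the 3' end, 6 of the 8 genes had at least 1 IDR summit, against 27.0% of all genes. The authors' pooled relaxed list put a summit in the promoter window of 6 of the 8, against 40.9% of all genes, and within the wider window of all 8, against 73.8%. The wider windows held 12 distinct IDR summits. The members' windows had a median length of 7844 bp, against 7027 bp for all genes, and those of pro-3 and ncl-1 were the longest, at 22066 and 23377 bp. Counted over length, the 8 windows held 13 IDR summits per 100 kb, against 3.86 per 100 kb of the nuclear genome. These 2 densities are not like for like. The members' windows are placed on genes, the genome figure is not, and 51.2% of all IDR summits lay in promoter windows. Of the 12 summits, 5 were at ncl-1. The genes fib-1, nol-56, nol-58, nol-10 and pro-1 each had 1 promoter peak in the IDR list, ncl-1 had its peaks outside the promoter window, and pro-2 and pro-3 had none in the IDR list.

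The DNA under the strongest IDR peak is shown for 5 genes, and that of nol-58, which also has an IDR peak, is not printed. It is also shown for 3 further sites that hold an E-box, of which the pro-1 distal site is not in the IDR list. Each run is 101 bases of ce11 with the summit at base 51, written 5' to 3' on the strand of the member gene. Capitals mark CACGTG, the non-canonical E-box CACGCG, or a run of 14 bases that fib-1 and nol-56 share.
fib-1, chrV:15002268-15002368, minus strand: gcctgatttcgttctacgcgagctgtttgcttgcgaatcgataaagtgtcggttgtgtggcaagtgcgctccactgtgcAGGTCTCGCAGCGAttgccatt
nol-56, chrV:10353184-10353284, minus strand: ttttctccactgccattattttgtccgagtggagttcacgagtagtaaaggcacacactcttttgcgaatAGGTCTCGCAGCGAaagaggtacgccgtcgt
nol-10, chrIV:7580339-7580439, plus strand: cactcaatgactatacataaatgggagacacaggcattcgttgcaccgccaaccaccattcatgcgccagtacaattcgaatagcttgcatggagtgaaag
pro-1, chrII:10542101-10542201, minus strand: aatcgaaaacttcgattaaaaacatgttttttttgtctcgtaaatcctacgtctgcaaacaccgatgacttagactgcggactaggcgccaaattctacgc
ncl-1, chrIII:7718470-7718570, plus strand: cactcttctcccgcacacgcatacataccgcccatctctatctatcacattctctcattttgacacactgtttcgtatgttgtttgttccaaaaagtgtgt
nol-56 distal, chrV:10356054-10356154, minus strand: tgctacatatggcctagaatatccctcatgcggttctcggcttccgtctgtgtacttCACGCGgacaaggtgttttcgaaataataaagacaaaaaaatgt
ncl-1 first intronic, chrIII:7720995-7721095, plus strand: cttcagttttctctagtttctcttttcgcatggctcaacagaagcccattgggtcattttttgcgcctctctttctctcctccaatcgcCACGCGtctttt
pro-1 distal, chrII:10546230-10546330, minus strand: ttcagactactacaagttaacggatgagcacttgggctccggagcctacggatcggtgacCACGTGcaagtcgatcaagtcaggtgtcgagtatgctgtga

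**Figure D1:**
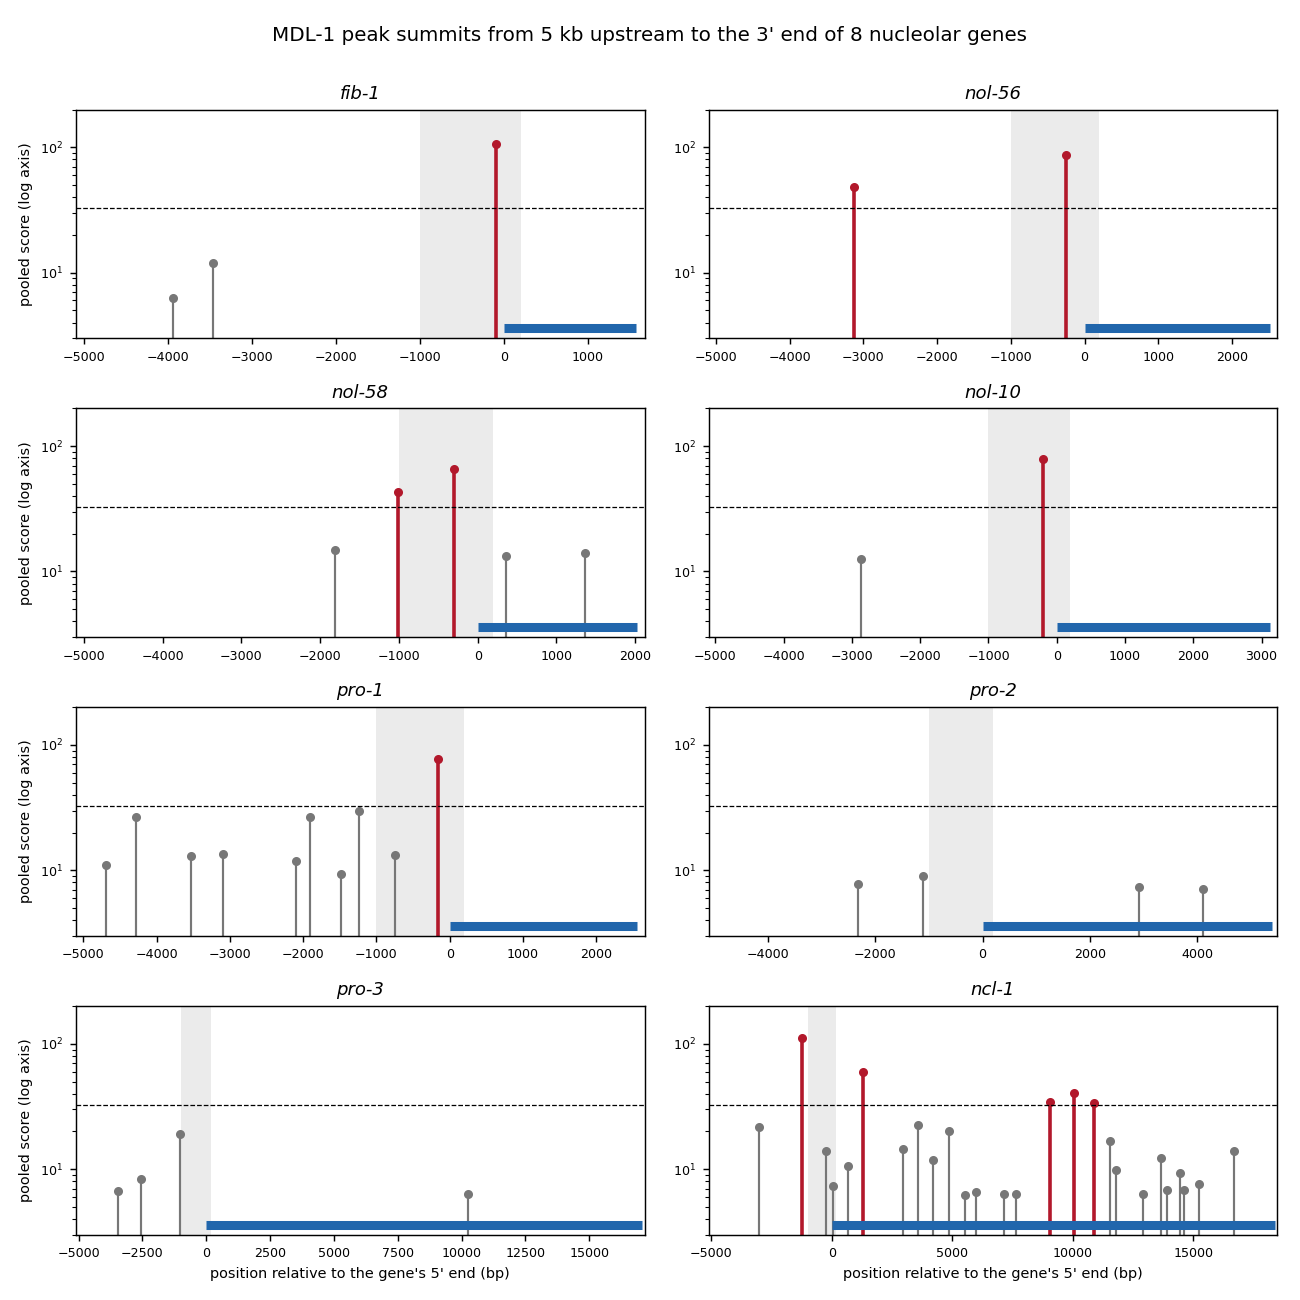
Pooled score (log axis) of every relaxed summit against its position in bp relative to the gene's 5' end, with upstream to the left, for the 8 genes. Red marks IDR summits and grey marks weaker ones. The blue bar is the gene, the grey band the promoter window and the dashed line the lowest IDR score of 32.7. The tallest peaks of fib-1, nol-56, nol-58, nol-10 and pro-1 stand just upstream of the gene, and nol-56 and nol-58 have another IDR summit farther upstream. Of the 5 IDR summits of ncl-1, the tallest is upstream and the others lie inside the gene, while pro-2 and pro-3 have none.

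The 3 box C/D snoRNP genes all had an IDR peak upstream of the 5' end. At fib-1 (WBGene00001423, chromosome V, 15000651 to 15002223, minus strand), the fibrillarin gene, the peak spanned 15002163 to 15002472 and its summit lay 95 bp before the 5' end. Its pooled score was 106 and its pooled rank 723. It ranked 945 in replicate 1 and 630 in replicate 2, so it lay well inside the highest 3870 of either. RefSeq starts fib-1 114 bp further downstream, which puts the summit 209 bp upstream of that start.

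At nol-56 (WBGene00010627, chromosome V, 10350466 to 10352978, minus strand), which encodes a core protein of the box C/D particle, there were 2 IDR peaks. The nearer spanned 10353079 to 10353388 and its summit lay 256 bp before the 5' end. It scored 86.7 and ranked 1040 in the pool. Its ranks of 1977 in replicate 1 and 584 in replicate 2 were among the widest apart of any member peak. The second summit lay 3126 bp upstream of nol-56, with a score of 48.3 and ranks of 2663 and 2255. It was 281 bp upstream of sluh-7, the gene of the splicing factor SLU7, which lies next to nol-56 on the same strand, so it stood in the promoter window of sluh-7 and not of nol-56.

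At nol-58 (WBGene00020915, chromosome I, 3267094 to 3269112, plus strand), the gene of the partner of NOP56 in the particle, the main summit lay 304 bp upstream of the 5' end at position 3266790. Its score was 66.1, the lowest of the 5 promoter peaks, and its ranks were 1251 in replicate 1 and 2602 in replicate 2. It was only 28 bp upstream of zip-4, a bZIP transcription factor gene on the other strand, and was given to zip-4 when each summit went to the nearest 5' end. A weaker IDR summit at 3266088, 1006 bp upstream of nol-58, lay in an intron of zip-4 with a score of 42.9 and ranks of 3423 and 3084.

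Among the subunit assembly genes, nol-10 and pro-1 had an IDR promoter peak. The gene nol-10 (WBGene00017989, chromosome IV, 7580597 to 7583726, plus strand) is the worm counterpart of human NOL10, a factor of small subunit processing. Its peak spanned 7580234 to 7580543, with the summit 208 bp upstream of the 5' end. The score was 79.1, and the ranks were 1462 in replicate 1 and 1087 in replicate 2. The gene pro-1 (WBGene00004185, chromosome II, 10539438 to 10541996, minus strand) encodes a WD-repeat protein of pre-rRNA processing that the worm germline needs for normal proliferation. Its peak spanned 10541996 to 10542305, with the summit 155 bp upstream of the 5' end in the 424 bp between pro-1 and mnk-1, the next gene on the same strand. The score was 77.7, and the ranks were 1175 and 1394, close together in the replicates.

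Upstream of pro-1, 9 further summits of the pooled relaxed list lay within mnk-1, the gene of a MAP kinase-interacting kinase, all below the IDR list. The highest of them, 1244 bp upstream of pro-1, had a pooled score of 29.5 and rank of 4346, just outside the 3870 peaks kept. The summit 4284 bp upstream, in coding sequence of mnk-1, had a score of 26.8 and rank of 4806, and ranked 5686 in replicate 1 and 2394 in replicate 2. It held a CACGTG, shown in the last sequence above, and so did the weaker summits 1485 and 3089 bp upstream, with scores of 9.4 and 13.6. These were the 3 of the 56 relaxed summits in the members' windows with the hexamer within 50 bp, against 4.74% of all pooled relaxed summits.

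The other 2 large subunit genes had no IDR summit from 5 kb upstream to the 3' end. At pro-2 (WBGene00007413, chromosome II, 10339727 to 10345112, minus strand), the gene of a protein like yeast Noc2, the best of 4 pooled relaxed summits lay 1104 bp upstream. Its score was 9.04 and its pooled rank 17952, far below the IDR list. It stood between divergent genes, 159 bp upstream of C07E3.10, and so in the promoter window of that gene and not of pro-2. In the promoter window of pro-2 the pooled list and replicate 1 had no summit, and replicate 2 had 1 at rank 16944. At pro-3 (WBGene00012676, chromosome V, 19101347 to 19118412, minus strand), the gene of a protein like yeast Sda1, the best of 4 lay 1011 bp upstream with a score of 19.2 and pooled rank of 6658. That summit was 2 bp inside Y39B6A.13, a gene on the same strand that ends 92 bp before pro-3 begins. It ranked 7485 in replicate 1 and had no summit within 100 bp in replicate 2. No relaxed list had a summit in the promoter window of pro-3, although that window holds a CACGTG 186 bp upstream of the 5' end. Lists that stop at 30000 peaks show only that a missing peak ranks below their end.

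The regulator ncl-1 (WBGene00003559, chromosome III, 7719729 to 7738105, plus strand) had the most peaks and the highest score of the 8 genes. It encodes a TRIM-NHL protein, and worms without it have enlarged nucleoli. Its 5 IDR summits ran from 1209 bp before the 5' end to 10864 bp after it, and none was in the promoter window. The highest, upstream at position 7718520, had a score of 111 and a pooled rank of 658, with ranks of 561 in replicate 1 and 920 in replicate 2. It lay between ncl-1 and C03B8.3, which ends 2414 bp before ncl-1 begins, and ncl-1 had the nearest protein-coding 5' end. With the window drawn out to 2000 bp upstream, ncl-1 became the sixth member with a promoter peak. The share of all genes is not given for that wider window.

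The other 4 IDR summits lay inside ncl-1. The first, 1316 bp downstream of the 5' end in an intron, scored 59.2 and ranked 1443 and 2259. Summits at 9040, 10052 and 10864 bp downstream were weaker, with scores of 34.4, 40.5 and 33.8, near the lowest IDR score of 32.7. The first of these 3 ranked 3125 in replicate 1 and had no summit within 100 bp in replicate 2. The second lay in coding sequence where ncl-1 overlaps ZK112.4, an uncharacterized gene on the other strand within it, and ranked 4993 and 1455. The third lay 582 bp upstream of ZK112.4 and 794 bp upstream of the 5' end of a shorter ncl-1 transcript, and ranked 5511 and 4246. The annotation gives ncl-1 10 transcripts with 8 different 5' ends, against 1 transcript for nol-56, nol-58, nol-10, pro-1, pro-2 and pro-3. Of the 56 relaxed summits in the members' windows, 26 were at ncl-1.

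The 2 replicates placed the member peaks at similar but not equal ranks. The IDR filter itself compares ranks between replicates, so this nearness is a description. The IDR list held the same summits as the 3870 highest peaks of the pooled relaxed list. A peak in it therefore need not have a match in both replicates. Of the 12 IDR summits, 11 had a summit within 100 bp in both replicates, against 94.5% of all 3870. The ranks of these 11 differed by a median of 1.5-fold, from 1.11-fold to 3.43-fold, against a median of 1.66-fold over the 3657 IDR summits found in both. Replicate 2 ranked 7 of the 11 higher and replicate 1 ranked 4 higher. In the highest 3870 peaks of either replicate alone, the same 5 genes had a promoter summit, where 12.3% of all genes had one in replicate 1 and 12.4% in replicate 2. The same 5 genes were also those with a promoter summit among the 1935 highest IDR peaks, against 7.16% of all genes, and among the 7740 highest pooled peaks, against 20.6%. These 2 sets and the IDR list are cuts of the same pooled ranking and not separate lists. The order of the 5 was not the same in both replicates. Replicate 1 put fib-1 first and nol-56 last, while replicate 2 put nol-56 first, fib-1 second and nol-58 last. The pooled order of fib-1, nol-56, nol-10, pro-1 and nol-58 is therefore not resolved beyond the spread between replicates.

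**Figure D2:**
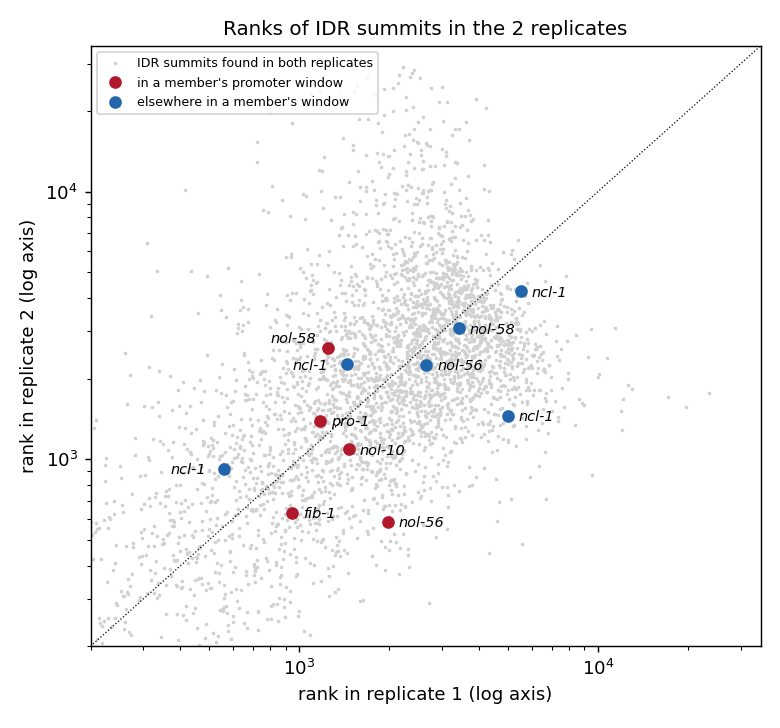
Rank in replicate 2 (vertical) against rank in replicate 1 (horizontal, both log axes) of the IDR summits found in both replicates, drawn from rank 200 on, where a low rank is a high score. Grey points are all such summits, red points are summits in a member's promoter window and blue points are other summits in the members' windows. The 11 member summits lie within the grey cloud on both sides of the dotted line of equal rank, and nol-56 and an intragenic ncl-1 summit lie farthest below it.

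Of the 5 member promoter peaks, 3 stood between divergent genes. The fib-1 summit lay 225 bp upstream of mut-15, a gene of the mutator pathway of small RNA silencing, whose 5' end is 320 bp from that of fib-1. The nol-10 summit lay 277 bp upstream of cec-5, a chromodomain gene, with 5' ends 485 bp apart. The 5' ends of nol-58 and zip-4 were 332 bp apart. A summit in such a space cannot be assigned to either gene from its position. Among all 1982 IDR summits in promoter windows, 28.4% lay in windows of genes on both strands. The nol-56 and pro-1 promoter summits lay in no other gene's window. All 5 member promoter summits were 95 to 304 bp upstream of the member's own 5' end. Measured to the nearest 5' end of any protein-coding gene, they were 28 to 256 bp upstream. By that measure, promoter summits of all genes were a median of 194 bp upstream.

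All 5 member promoter peaks lay among the 1935 highest of the IDR list, whose highest score was 680.0. Their median score was 79.1, against a median of 63.5 for the best promoter peak of the 2560 genes with one. The lowest of the 5, at nol-58, scored 66.1. By best promoter peak, 537 protein-coding genes scored higher than fib-1. The 3 genes nearest to fib-1 by rank in the 2 replicates, by distance on a log10 scale, were cpr-9 and gcy-33, which share a peak with ranks of 943 and 628, and mekk-3, with ranks of 902 and 657. Their pooled scores were 101 and 99.2. This likeness is of 2 ranks only.

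No IDR summit in the members' windows held CACGTG within 50 bp, in 0 of 12, against 13.2% of all IDR summits and 1.94% of windows moved by 500 bp. Extending the search to 100 bp on either side found none. Of promoter IDR summits as a whole, 10.2% held it. The promoter windows of pro-3 and nol-58 hold the hexamer, as do 18.4% of all promoter windows, and that of nol-58 is 300 bp from the nearest IDR summit. CACGCG, searched on both strands, lay near 3 of the 12 summits, against 9.33% of all IDR summits and 1.25% of flanking windows. These 3 were the distal nol-56 summit and 2 intronic ncl-1 summits, and none was a member promoter peak. The nearest to a member promoter summit was at nol-10, 77 bp from it and so outside the 50 bp searched. The E-boxes CAGCTG and CAATTG lay near none of the 12, and CATATG near 1, the distal nol-56 summit. GC content of the 12 windows had a median of 47%, from 37.6 to 55.4%, against a median of 46.5% over all IDR windows.

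The promoter peaks of fib-1 and nol-56 shared an exact run of 14 bases, AGGTCTCGCAGCGA, in capitals in the first 2 sequences above. It was the longest run, on either strand, common to the IDR windows of any 2 different members, and it was found by looking at these windows, so its presence there was not tested. Its centre lay 35 bp from the summit at fib-1 and 26 bp at nol-56, between the summit and the gene in both. It occurs 23 times in the nuclear genome, in 0.0551% of promoter windows, within 50 bp of 4 IDR summits and in 0 of 7740 flanking windows. The other 2 summits, named after their values were seen, lay 176 bp upstream of pqn-70, on chromosome V, and 175 bp upstream of the mitotic kinase gene plk-1, on chromosome III, with scores of 98.0 and 33.2.

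Over a wider list of 60 ribosome biogenesis genes, members included, 26 had an IDR promoter summit (43.3%), against 12.8% of all protein-coding genes. Without the 8 members it was 21 of 52. The median score of the best promoter peak was 51.6 over the 26 genes and 47.5 over the 21. Both lay below the 63.5 of all genes with a promoter peak. The list was drawn up by role from known names, with earlier results of these data known, so this contrast is also a description. Of the 26 best peaks, 19 also stood in the promoter window of a neighbouring gene outside the list. Position alone cannot assign those peaks to the listed gene. With each summit given to the nearest 5' end only, 16 of 60 had one, against 9.62% of all protein-coding genes.

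By role, snoRNP genes had an IDR promoter summit in 8 of 9 cases, small subunit factors in 8 of 15 and large subunit factors in 6 of 18. Exosome subunits had one in 3 of 11 and RNA polymerase I subunits in 1 of 6. The share of all protein-coding genes was 12.8%, and the 16.7% of RNA polymerase I subunits was near it. Without the members, the counts were 5 of 6 for snoRNP genes, 7 of 14 for small subunit factors and 5 of 15 for large subunit factors. The snoRNP genes were led by fib-1, nol-56, nol-58 and dkc-1, the gene of the pseudouridine synthase dyskerin of box H/ACA particles, with a score of 62.5. The 1 snoRNP gene without such a summit was garr-1, named after its values were seen, whose best relaxed promoter summit ranked 5487. The small subunit factors were led by rbd-1, the gene of an RNA-binding protein of pre-rRNA processing, with 102, and wdr-46 with 101, then nol-10 and krr-1 with 39.5. The large subunit factors were led by lpd-7, the Pescadillo gene, with a score of 107 at a summit shared with the ribosomal protein gene rpl-9. After it came pro-1, the nucleolar GTPase gene nog-1 with 68.3 and the rRNA methyltransferase gene nsun-5 with 48.7. The best summits of dkc-1, rbd-1, krr-1, nog-1 and nsun-5 also stood in promoter windows of other genes.

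The exosome, which trims the 3' ends of rRNA precursors, had promoter peaks at exos-4.1, exos-9 and exos-2, with scores of 58.7, 49 and 37.5. The summits of exos-4.1 and exos-9 also stood in promoter windows of other genes, and that of exos-9 lay 956 bp upstream. For RNA polymerase I the only gene with one was rpac-19, whose product is shared with polymerase III, with a score of 37.7 at a summit also upstream of the gamma-tubulin gene tbg-1. The other 5 had none. Of the 26 best promoter peaks, 1 held CACGTG within 50 bp, that of riok-1, a RIO kinase gene named after its values were seen. It scored 36.9 and ranked 2075 in replicate 1 but 8815 in replicate 2.

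**Figure D3:**
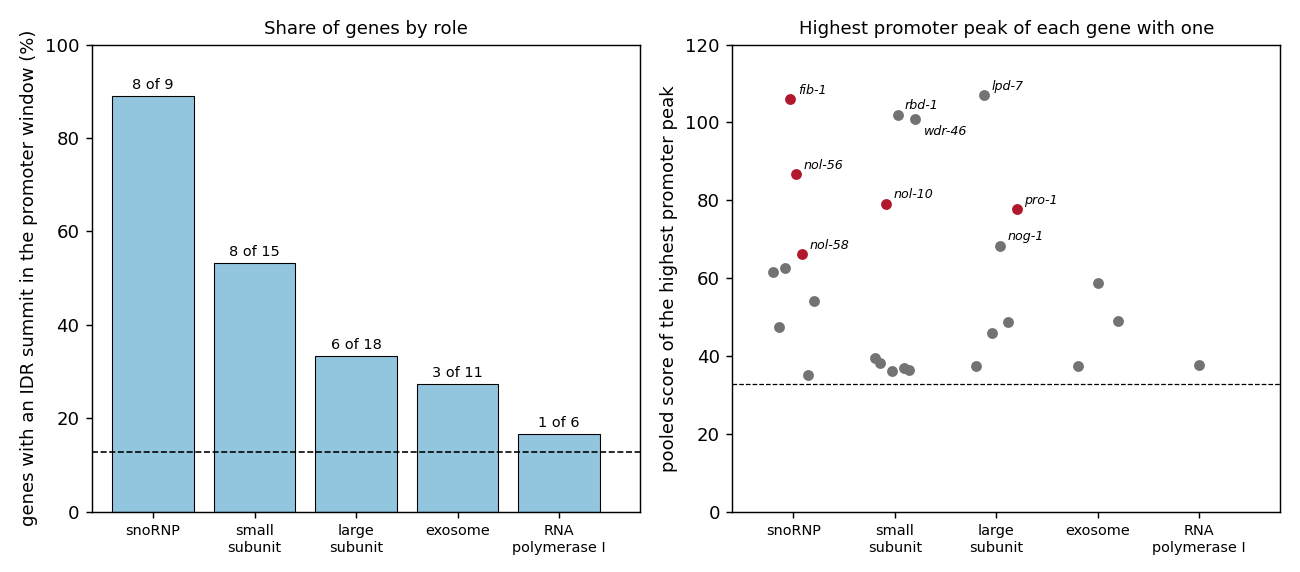
Left, percentage of genes of each role with an IDR summit in the promoter window, with counts above the bars and a dashed line at 12.8%, the share of all protein-coding genes. Right, pooled score of the highest promoter peak of each gene that has one, members in red and others in grey, with a dashed line at the lowest IDR score of 32.7. Bars include the members. The snoRNP bar is the tallest, at 8 of 9, and fib-1, lpd-7, rbd-1 and wdr-46 reach scores of 101 to 107.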

How the data were processed

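The deposited narrowPeak files were used in ce11: an optimal IDR list, a relaxed list of the pooled replicates and 1 relaxed list per replicate. Per the deposited file inventories, relaxed peaks were called from the alignments of each replicate and of the pool, a control is named for the pooled list in ce11 and none for the replicate lists, and the IDR list was made from these 3. Library fragments of 150 to 350 bp were selected, per the labels. Aligner, peak caller, their versions and the IDR cutoff were not given in the sources used here, nor was depth. The authors' score ranked peaks within a list, and the deposited −log10 q-value column was not used. The lists in ce10 were not used here.

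Summits were placed on Ensembl release 115 genes of WBcel235, the sequence of ce11. Sequences come from RefSeq's copy of that assembly, and no peak ended beyond its chromosome. Motifs were searched within 50 bp of summits and in the same windows moved by 500 bp. Of the 87 names in the gene lists, 70 were matched, 16 were not, and gar-1 was left out because it names a muscarinic receptor. The rule for naming genes took all members, genes sharing a summit with them, up to 4 of the highest score per role and the 3 nearest to fib-1 by rank. Upstream neighbours and hosts of member summits are named as position, and garr-1, riok-1, rpoa-1, pqn-70 and plk-1 were named after their values were seen. Members and lists were chosen with earlier results of these data known. With 1 group and no control sample, no test was made: counts stand beside the share of all genes. Alternatives covered other lists, windows, gene starts and distances. Counting was checked on simulated summits with Python 3.11.15.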

Additional observations from a re-analysis of the deposited data

How the results depend on the processing

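The counts of members held under most of the 31 alternatives to the counts given, of which 28 stayed within 1.5-fold. Promoter peaks were at 4 to 6 of the 8 members and peaks from 5 kb upstream to the 3' end at 6 or 7. The 6 came with the window of 2000 bp upstream or with every transcript 5' end, and the 7 with the 7740 highest pooled peaks. The share of all genes is not given for these 3 counts, and such settings can only add genes. Leaving out a replicate gave 5 to 5 members with a promoter summit, 6 to 6 with any summit and 21 to 25 of the 60 wider genes. The 3 exceptions were 11 wider genes with the 1935 highest IDR peaks, where 7.16% of all genes had a promoter summit, 16 with nearest 5' ends only, where it was 9.62%, and 1 summit with CACGTG among 20 in the 7740 highest pooled peaks, at pro-1. Fewer or more peaks, and fewer genes per peak, are built into these 3. RefSeq 5' ends, added after seeing the data, gave 5 members and 26 wider genes. Of 72 counts for single members, 4 changed, at nol-58 and ncl-1. No paired analysis was possible because the series has 1 group. With 2 replicates and no read counts, the spread between animals could not be estimated.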

Other observations

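The RNA polymerase I gene rpoa-1, chosen after its values were seen, resembled ncl-1 in having 5 IDR summits from 5 kb upstream to the 3' end and none in its promoter window. The word CTGCGTCTC, chosen after the sequences were seen and searched on both strands, lay within 50 bp of 10.4% of IDR summits and of 0.53% of flanking windows, but of 0 of the 12 summits in the members' windows. Among members, only the promoter window of ncl-1 held it, as did 6.81% of all promoter windows.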
